A study of Homo sapiens with 4 samples.

Results

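The genes described here serve 2 linked stress programmes, the amino acid response run by the transcription factor ATF4 and the unfolded protein response of the endoplasmic reticulum (ER). They are 53 genes chosen by name for these functions, of which 52 had a probe set annotated with 1 gene symbol. All 52 also reached the level set as a filter on dim genes, among 19775 genes in all and 15082 that reached it. MARS1 had no such probe set and was not analysed here. Of the 52, 35 form the ATF4 arm, 13 form the ER arm of chaperones and ER-associated degradation genes, and 4 are the sensors and factors that start the unfolded protein response.

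The RNA was that of MDA-MB-231, a triple-negative breast carcinoma line of human origin, and was measured on 4 Affymetrix U133 Plus 2 arrays, 1 array per group. The groups were cells stably transduced with a ZEB2 shRNA, cells stably transduced with the control vector pLVTH, cells given a pool of ZEB2 siRNAs, and cells given siRNA against luciferase (siLUC). ZEB2 is a transcriptional repressor of epithelial genes. The siRNA groups received 20 nM siRNA with a transfection reagent, were washed after 24 hours and were harvested after 48 further hours. All cells grew in Leibovitz-15 medium with serum and L-glutamine, and none was given an ER stressor or deprived of an amino acid according to the labels. Biotinylated cRNA was made from 2 microg of RNA for the shRNA groups and from 100 ng for the siRNA groups, so method of knockdown and RNA input cannot be told apart. Whether a stable line was 1 clone or a pool is not given in the sources used here.

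The stable knockdown and the shRNA control are called the stable pair, and the transient knockdown and the siLUC control the transient pair. Since every group is a single array, a difference inside a pair cannot be set against replicates and carries no p-value. Levels are log2 RMA values, in which 1 unit is 2-fold, and RMA levels of different genes are not comparable amounts of RNA. Differences are knockdown minus control, and at the brightest ZEB2 probe set they were -2.60 (stable) and -3.05 (transient). The 6 markers fixed for a mesenchymal-like breast line lay between 8.88 and 14.12 on every array, above the filter level of 4.77. Of 6 luminal markers 4 also reached that level on at least 1 array, GATA3 the highest at 8.18 to 9.48 and the others ERBB2, CDH1 and ESR1, while PGR and FOXA1 stayed under it. Of 3 leukocyte markers CD79A and CD3E reached it, none above 6.24, and PTPRC did not. The shRNA control stood apart from the other arrays for SNAI2 and LUM, while CDH1 differed mainly between the shRNA and siRNA arrays. The mesenchymal marker SNAI2 read 10.85 in the stable knockdown and 8.88 in the shRNA control. On the siRNA arrays SNAI2 read 11.42 in the transient knockdown and 11.68 in the siLUC control. LUM, a fibroblast matrix gene, read 6.80 in the stable knockdown and 2.92 in the shRNA control, and 8.71 in the transient knockdown and 8.99 in the siLUC control. The epithelial gene CDH1 read 4.26 and 3.54 on the shRNA arrays and 8.35 and 7.37 on the siRNA arrays, the knockdown first each time. The 3 fibroblast markers averaged 6.18 in the stable knockdown and 4.80 in the shRNA control, which LUM accounts for, since PDGFRB read 6.28 in the stable knockdown and 5.78 in the shRNA control and DCN 5.48 in the stable knockdown and 5.72 in the shRNA control. The part of the differences in SNAI2, LUM and CDH1 in the results below was not tested.

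ATF4 is translated preferentially when eIF2 alpha is phosphorylated, by GCN2 when amino acids are short or by PERK when proteins misfold in the ER. It then raises genes for amino acid synthesis, amino acid uptake and tRNA charging through the C/EBP-ATF composite element (CARE). In the unfolded protein response, ATF6 and spliced XBP1 raise chaperone and degradation genes through the ER stress elements ERSE and ERSE-II. PERK thus acts through ATF4, while the ER arm answers mainly to ATF6 and XBP1.

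Promoters of the genes that differed at least 2-fold in a knockdown pair, and of the chaperone gene HSPA5, are shown where one of these elements was found upstream of the annotated start. Capitals mark the element, and each line gives 40 bases on both sides of it, read 5′ to 3′ along the gene from RefSeq, build GRCh38.p14. ASNS is at chr7:97872429-97872516 (minus strand), ATF3 at chr1:212565176-212565263 (plus strand) and CHAC1 at chr15:40953222-40953309 (plus strand). HSPA5 is at chr9:125241351-125241449 (minus strand) and SDF2L1 at chr22:21642074-21642164 (plus strand). ASNS and ATF3 each had 2 start windows, with the element in 1. The element began 68 bases upstream of the start in ASNS and 66 in HSPA5.
ASNS, CARE: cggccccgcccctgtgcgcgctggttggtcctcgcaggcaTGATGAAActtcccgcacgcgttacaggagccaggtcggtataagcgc
ATF3, CARE: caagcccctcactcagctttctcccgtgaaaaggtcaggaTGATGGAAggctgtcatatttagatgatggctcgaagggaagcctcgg
CHAC1, CARE on the opposite strand: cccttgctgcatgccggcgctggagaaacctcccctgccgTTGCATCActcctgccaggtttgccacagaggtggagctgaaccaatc
HSPA5, ERSE: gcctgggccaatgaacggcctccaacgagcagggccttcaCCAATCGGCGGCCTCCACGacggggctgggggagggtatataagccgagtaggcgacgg
SDF2L1, ERSE-II on the opposite strand: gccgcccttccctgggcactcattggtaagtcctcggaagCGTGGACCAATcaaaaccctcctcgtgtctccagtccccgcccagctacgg

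The search covered 250 bases upstream of each start on both strands, and 49 of the 53 genes had a window in the RefSeq table. The CARE letters TGATGNAA were found for 7 of 32 ATF4 arm genes (ASNS, ATF3, CHAC1, CEBPG, GARS1, AARS1 and SLC1A5) and for 1 of 13 ER arm genes (HERPUD1), and 3.89% of all 27305 genes in the table held them. The ERSE letters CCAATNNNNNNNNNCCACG were found for 5 of 13 ER arm genes (HSPA5, HSP90B1, CALR, CANX and PDIA6), for the sensor gene XBP1, for 0 of 32 ATF4 arm genes and for 0.0916% of all genes. ERSE-II, whose reverse complement stands in capitals in the SDF2L1 line with 1 free base between CGTGG and CCAAT, was found for 3 ER arm genes (SDF2L1, HYOU1 and HERPUD1) and for 0.0659% of all genes. None of the 3 motifs overlapped another in the lines shown. A match in these windows is a description of the letters and says nothing of binding, and elements outside the windows or with other letters were not searched.

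The 2 arms lay on opposite sides of 0 in the stable knockdown. In the ATF4 arm, 8 of 35 genes (22.9%) exceeded 2-fold on the higher side in the stable knockdown relative to the shRNA control, against 2.39% of all genes kept, and 0 were 2-fold lower. In the ER arm, 2 of 13 genes (15.4%) were at least 2-fold lower, against 2.08% of all genes kept, and 0 were 2-fold higher. At 1.5-fold, 18 of 35 ATF4 arm genes were higher and 0 lower, and 0 of 13 ER arm genes were higher and 6 lower, where 7.55% of all genes kept were higher and 7.11% lower. The median difference was 0.69 in the ATF4 arm and -0.31 in the ER arm, against -0.02 over all genes kept. The plot of levels by array shows each gene on its 4 arrays.

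**Figure D1:**
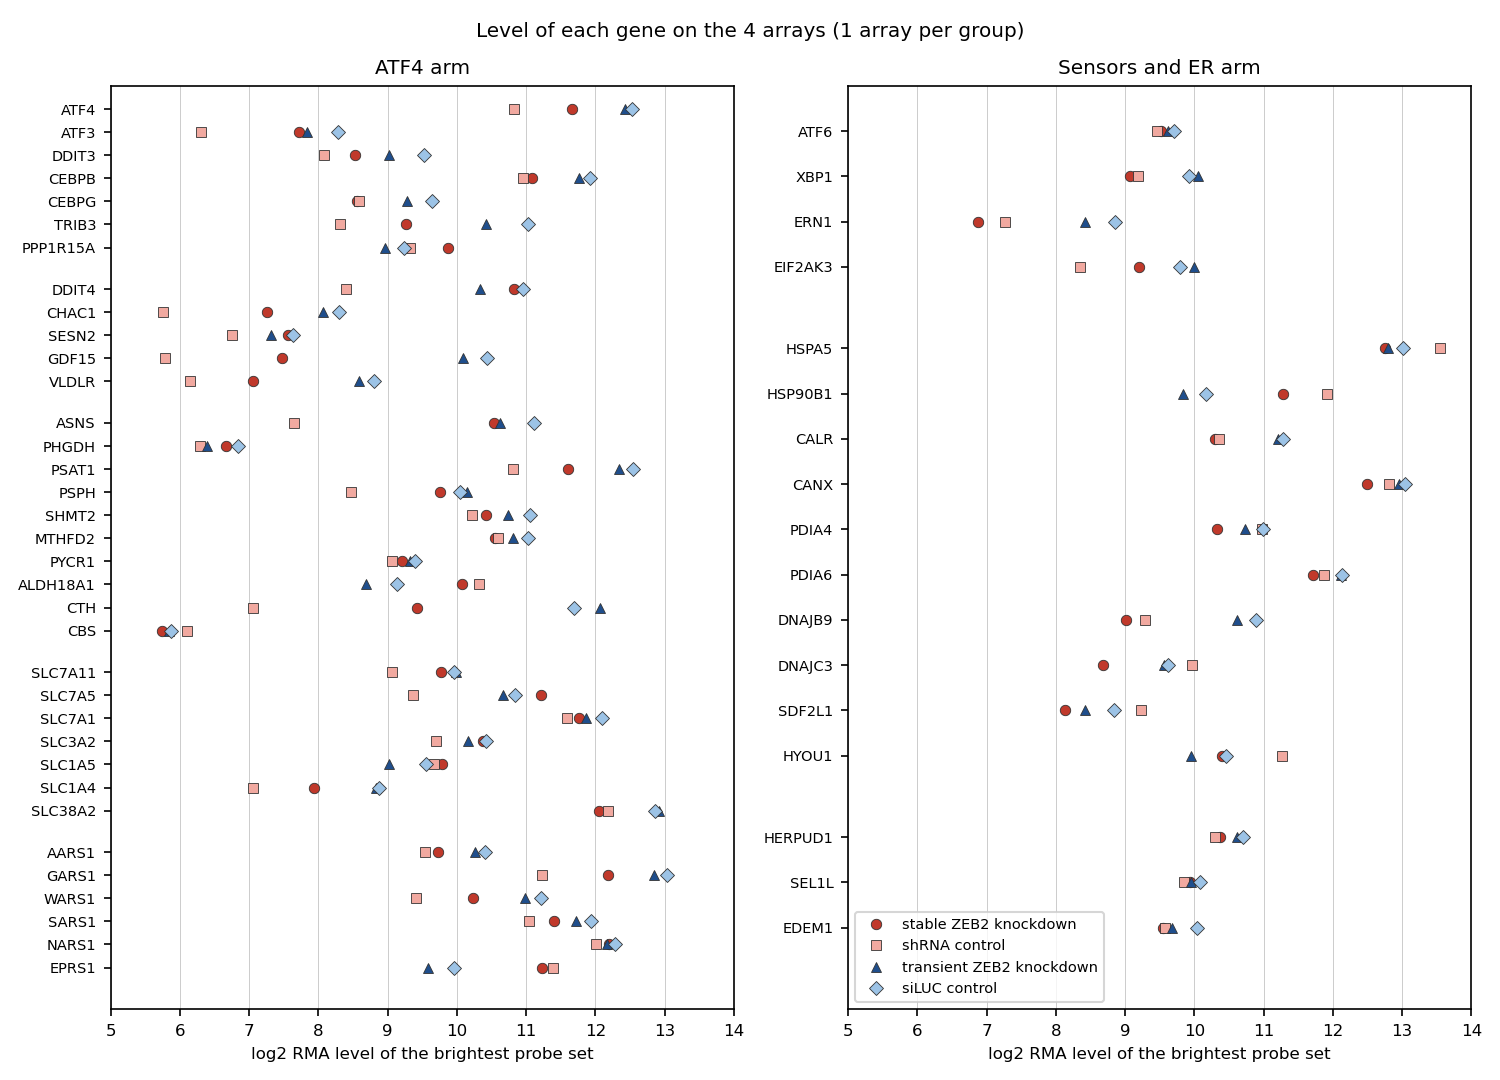
Log2 RMA level (horizontal axis) of the brightest probe set of each of the 52 genes on the 4 arrays, grouped by role, with 1 point per array. In the left panel most ATF4 arm genes have the shRNA control (pale square) farthest to the left, and in the right panel the chaperone genes from HSPA5 to HYOU1 have the stable knockdown (red circle) to the left of the shRNA control.

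Among the regulators, ATF4 itself read 11.66 in the stable knockdown and 10.82 in the shRNA control, and 12.42 in the transient knockdown and 12.53 in the siLUC control. ATF4 differed by 0.84 in the stable pair, 1.79-fold, and by -0.11 in the transient pair. The shRNA control was the lowest of the 4 arrays for it, and both siRNA arrays were above both shRNA arrays. ATF3, a stress-induced member of the same bZIP family, read 7.72 in the stable knockdown against 6.31 in the shRNA control, and 7.83 in the transient knockdown against 8.28 in the siLUC control. Its differences were 1.41 and -0.45, but its other 2 probe sets gave only 0.67 and 0.38 in the stable pair. TRIB3, a pseudokinase that ATF4 induces and that restrains it, read 9.27 in the stable knockdown against 8.32 in the shRNA control, and 10.43 in the transient knockdown against 11.03 in the siLUC control. Its differences were 0.95 and -0.60, the stable pair first as in all such couples of values, and its second probe set gave 1.02 and -0.87. DDIT3, which encodes the pro-apoptotic factor CHOP, read 8.54 in the stable knockdown against 8.08 in the shRNA control, and 9.02 in the transient knockdown against 9.53 in the siLUC control, differing by 0.46 and -0.50. PPP1R15A, which encodes GADD34, the phosphatase subunit that restores translation, differed by 0.56 and -0.27 at its brightest probe set and by 0.75 and -0.45 at the other. The C/EBP partners of ATF4 differed less, CEBPB by 0.12 and -0.16 and CEBPG by -0.03 and -0.36. CEBPG read 8.56 in the stable knockdown against 8.59 in the shRNA control, and 9.29 in the transient knockdown against 9.64 in the siLUC control. All 7 regulators were lower in the transient knockdown than in the siLUC control, with differences between -0.60 and -0.11.

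The stress outputs of ATF4 had the highest median of any role group in the stable pair, 1.51. DDIT4, which encodes the mTORC1 inhibitor REDD1, read 10.83 in the stable knockdown against 8.40 in the shRNA control, a difference of 2.43 or 5.40-fold. On the siRNA arrays DDIT4 read 10.34 in the transient knockdown against 10.95 in the siLUC control, a difference of -0.61. The shRNA control alone was low, and the other 3 arrays lay between 10.34 and 10.95. GDF15, a secreted stress cytokine, read 7.48 in the stable knockdown against 5.79 in the shRNA control and 10.09 in the transient knockdown against 10.43 in the siLUC control. Its differences were 1.69 and -0.34, read by a probe set whose name marks possible cross-hybridisation, while a dimmer GDF15 probe set gave 0.33 and 0.13. CHAC1, which degrades glutathione, read 7.26 in the stable knockdown and 5.75 in the shRNA control, against 8.07 in the transient knockdown and 8.30 in the siLUC control. The differences of CHAC1 were 1.51 and -0.22. VLDLR, a lipoprotein receptor gene that is a target of ATF4, read 7.06 in the stable knockdown against 6.14 in the shRNA control, and 8.58 in the transient knockdown against 8.80 in the siLUC control. SESN2, whose product senses leucine and restrains mTORC1, differed by 0.81 and -0.32. At the brightest probe set all 5 outputs were at least 1.5-fold higher in the stable knockdown and lower in the transient one. A second SESN2 probe set gave 0.45 and 0.06. Like the dimmer GDF15 probe set, it was under 1.5-fold in the stable pair and not lower in the transient pair.

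Amino acid synthesis genes split into a few with large differences and many near 0. ASNS, which makes asparagine and is the classical target of the amino acid response, read 10.53 in the stable knockdown and 7.65 in the shRNA control. This difference of 2.88, 7.34-fold, was the highest of the 52 genes. ASNS read 10.63 in the transient knockdown and 11.11 in the siLUC control, a difference of -0.48, and a second ASNS probe set stayed near 2.98 on every array, under the filter level. CTH, which makes cysteine from cystathionine, read 9.42 in the stable knockdown against 7.05 in the shRNA control, a difference of 2.37, and 12.07 in the transient knockdown against 11.69 in the siLUC control, a difference of 0.38. The other CTH probe set gave 2.10 and 0.14. CBS, which catalyses the step before CTH, read 5.75 in the stable knockdown against 6.10 in the shRNA control. On the siRNA arrays CBS read 5.85 in the transient knockdown against 5.88 in the siLUC control. These values rest on a single dim probe set, as the other CBS probe sets stayed under the filter level on every array. CBS also has a near-identical gene copy in the reference genome.

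The 3 enzymes of the serine pathway were all higher in the stable knockdown, to different degrees. PSPH, the last enzyme, read 9.76 in the stable knockdown against 8.47 in the shRNA control, and 10.15 in the transient knockdown against 10.04 in the siLUC control, with differences of 1.30 and 0.11. The second bright PSPH probe set gave 1.04 and 0.37. PSAT1, the middle enzyme, read 11.61 in the stable knockdown against 10.81 in the shRNA control, and 12.33 in the transient knockdown against 12.54 in the siLUC control, with differences of 0.80 and -0.21. PHGDH, the first enzyme, read 6.67 in the stable knockdown against 6.29 in the shRNA control, and 6.39 in the transient knockdown against 6.84 in the siLUC control, with differences of 0.38 and -0.45. The mitochondrial one-carbon enzymes SHMT2 (0.20 and -0.31) and MTHFD2 (-0.05 and -0.21) and the proline enzymes PYCR1 (0.14 and -0.06) and ALDH18A1 (-0.25 and -0.45) differed by less than 1.5-fold in both pairs. ALDH18A1 read 10.07 in the stable knockdown against 10.32 in the shRNA control, and 8.69 in the transient knockdown against 9.14 in the siLUC control. PSPH and CTH were the synthesis genes that were higher in both knockdowns.

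Among the transporters, SLC7A5, the LAT1 subunit that imports leucine and other large neutral amino acids, read 11.21 in the stable knockdown and 9.36 in the shRNA control. SLC7A5 read 10.67 in the transient knockdown and 10.84 in the siLUC control, so the stable knockdown was the highest of the 4 arrays. The differences were 1.85, 3.59-fold, and -0.17. SLC3A2, the heavy chain that pairs with LAT1 and with the cystine carrier, differed by 0.69 and -0.27. SLC7A11, the cystine carrier, differed by 0.70 and 0.03, and its 3 probe sets agreed to within 0.16 in the stable pair. SLC1A4, a neutral amino acid carrier, read 7.93 in the stable knockdown against 7.06 in the shRNA control, and 8.84 in the transient knockdown against 8.87 in the siLUC control, with differences of 0.87 and -0.03. The arginine and lysine carrier SLC7A1 (0.17 and -0.23) and the glutamine carriers SLC1A5 (0.11 and -0.53) and SLC38A2 (-0.12 and 0.05) were within 1.5-fold in both pairs at the brightest probe set. A dimmer SLC7A1 probe set gave 1.15 in the stable pair, and the others gave 0.31, 0.29 and -0.18.

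Of the 6 tRNA synthetase genes measured, 5 were higher in the stable knockdown, 2 of them at 1.5-fold and 0 at 2-fold. GARS1, for glycine, read 12.18 in the stable knockdown against 11.23 in the shRNA control, and 12.85 in the transient knockdown against 13.03 in the siLUC control, with differences of 0.95 and -0.18. WARS1, for tryptophan, read 10.24 in the stable knockdown against 9.42 in the shRNA control, and 10.98 in the transient knockdown against 11.22 in the siLUC control, with differences of 0.82 and -0.24. SARS1 (0.36 and -0.21), AARS1 (0.19 and -0.16) and NARS1 (0.18 and -0.13) lay lower, and EPRS1 differed by -0.16 and -0.36. EPRS1 read 11.23 in the stable knockdown against 11.39 in the shRNA control, and 9.59 in the transient knockdown against 9.95 in the siLUC control. All 6 were lower in the transient knockdown. Synthetases that are not counted among ATF4 targets were set beside them, FARSA, FARSB, HARS1, KARS1 and RARS1. These 5 spanned -0.36 to 0.12 in the stable pair and had a median of -0.15, against 0.27 for the 6 of the ATF4 arm.

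The sensor group had no common direction at the brightest probe sets. EIF2AK3, which encodes PERK, read 9.21 in the stable knockdown and 8.34 in the shRNA control, and 9.99 in the transient knockdown and 9.79 in the siLUC control, differing by 0.86 and 0.20. ERN1, which encodes the XBP1-splicing sensor IRE1 alpha, read 6.88 in the stable knockdown against 7.27 in the shRNA control, and 8.42 in the transient knockdown against 8.86 in the siLUC control, differing by -0.39 and -0.44. ATF6 differed by 0.07 and -0.09 and XBP1 by -0.11 and 0.14. The other ATF6 probe sets were all lower in the stable pair, by -0.52, -0.32 and -0.28. A second XBP1 probe set, near the filter level, gave -0.24 and -0.43. These arrays do not separate spliced from unspliced XBP1. The eIF2 kinase genes EIF2AK1, EIF2AK2 and EIF2AK4 and the eIF2 alpha gene EIF2S1 spanned 0.01 to 0.31 (stable) and -0.27 to 0.01 (transient).

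In the ER arm, all 10 folding genes were lower in the stable knockdown, 6 of them at 1.5-fold, and their median difference was -0.64. DNAJC3, an ER co-chaperone that also inhibits PERK, read 8.68 in the stable knockdown and 9.97 in the shRNA control, a difference of -1.29 or 2.44-fold lower. Its 4 probe sets lay between -1.34 and -0.78. In the transient knockdown DNAJC3 read 9.56 against 9.62 in the siLUC control. SDF2L1, an ER-resident chaperone partner, read 8.13 in the stable knockdown against 9.23 in the shRNA control, and 8.42 in the transient knockdown against 8.84 in the siLUC control, differing by -1.10 and -0.42. For both genes the stable knockdown was the lowest and the shRNA control the highest of the 4 arrays at the brightest probe set. At the other 3 DNAJC3 probe sets both siRNA arrays lay below both shRNA arrays, so its stable knockdown was not the lowest there.

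HYOU1 and HSPA5, like CBS, PHGDH and HERPUD1, were chosen for full values after these had been seen. HYOU1, an exchange factor for BiP, read 10.39 in the stable knockdown and 11.27 in the shRNA control, and 9.95 in the transient knockdown and 10.46 in the siLUC control. Its differences were -0.88 and -0.51, and the transient difference was the lowest of the 13 in the ER arm. HSPA5, which encodes BiP, the chief ER chaperone of the Hsp70 family, read 12.76 in the stable knockdown against 13.54 in the shRNA control, and 12.80 in the transient knockdown against 13.01 in the siLUC control, differing by -0.78 and -0.21. A dimmer HSPA5 probe set gave -1.10 and -0.51. The shRNA control was the highest array for both genes. The disulfide isomerase PDIA4 (-0.65 and -0.26) and HSP90B1, which encodes GRP94 (-0.64 and -0.33), were the remaining folding genes at 1.5-fold in the stable pair. HSP90B1 read 11.28 in the stable knockdown against 11.92 in the shRNA control, and 9.84 in the transient knockdown against 10.17 in the siLUC control. Both HSP90B1 probe sets bear a name that marks possible cross-hybridisation, and the dimmer one gave -0.67 and -0.22. CANX (-0.31 and -0.09), PDIA6 (-0.15 and -0.02) and CALR (-0.06 and -0.07) were nearer to 0, and another CALR probe set gave -0.72 and -0.23. DNAJB9, an Hsp40 co-chaperone, read 9.01 in the stable knockdown against 9.29 in the shRNA control, and 10.62 in the transient knockdown against 10.89 in the siLUC control, a difference of -0.27 in each pair, with other probe sets at -0.49 and -1.05 in the stable pair.

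The 3 degradation genes did not share the difference of the folding genes in the stable pair. SEL1L, the adaptor of the HRD1 ubiquitin ligase, read 9.94 in the stable knockdown against 9.85 in the shRNA control, and 9.95 in the transient knockdown against 10.09 in the siLUC control. Its other probe sets gave 0.37, 0.20 and -0.15 in the stable pair and -0.63, -0.19 and -0.43 in the transient pair. EDEM1, which marks misfolded glycoproteins for removal, read 9.55 in the stable knockdown against 9.58 in the shRNA control, and 9.68 in the transient knockdown against 10.03 in the siLUC control. HERPUD1, a membrane component of the same machinery, read 10.37 in the stable knockdown against 10.30 in the shRNA control, and 10.62 in the transient knockdown against 10.70 in the siLUC control. The median of the 3 was 0.07 in the stable pair, against -0.64 for folding genes. In the transient pair all 3 were lower at the brightest probe set, with a median of -0.14 against -0.23 for folding genes. The plot by role group sets these groups side by side.

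**Figure D2:**
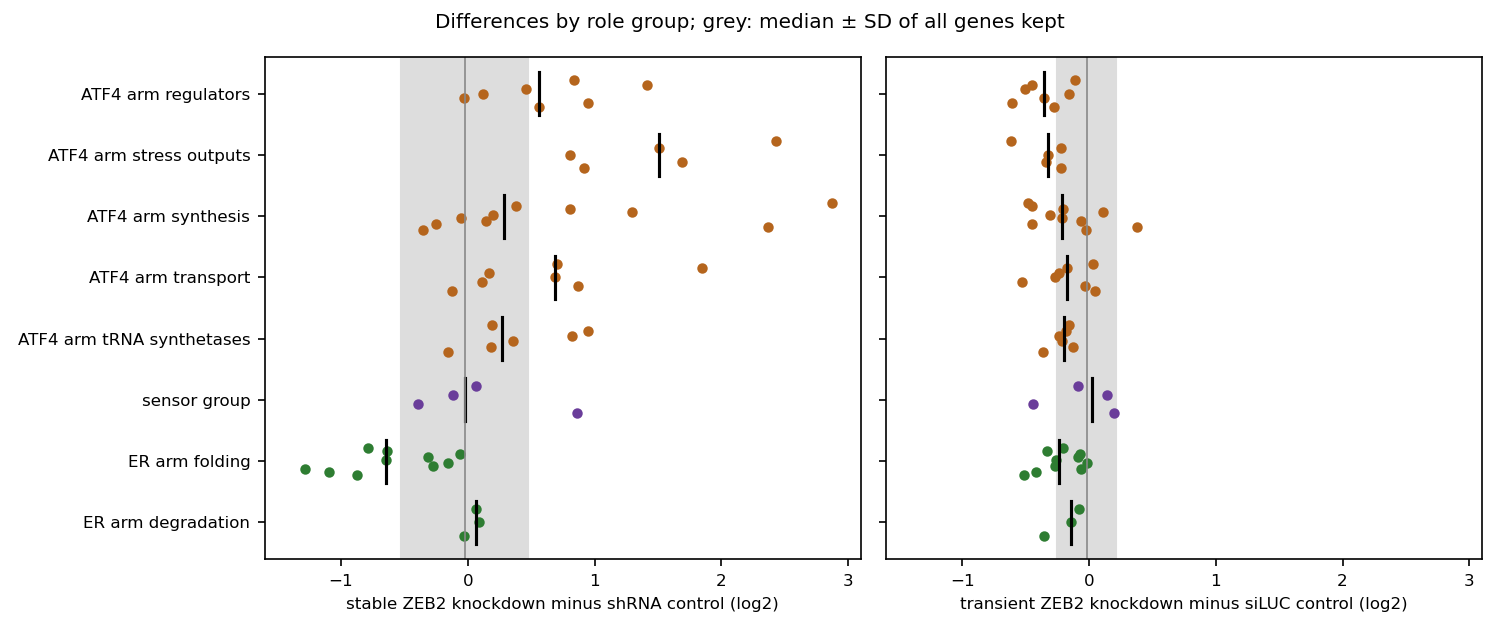
Difference in log2 level (horizontal axis) of each gene, by role group, for the stable knockdown minus the shRNA control (left) and the transient knockdown minus the siLUC control (right). Points are genes, black bars are group medians and the grey band is the median ± SD over the 15082 genes kept; stress outputs lie highest on the left (median 1.51), folding genes lowest (-0.64), and nearly all groups lie just below 0 on the right.

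The transient knockdown gave small differences in both arms. No gene of the 52 was 2-fold different from the siLUC control in either direction, where 0.172% of all genes kept were. At 1.5-fold 0 were higher and 2 lower, DDIT4 and TRIB3, where 0.69% of all genes kept were higher and 1.51% lower. Most members nevertheless lay slightly below their control, 31 of 35 in the ATF4 arm and 13 of 13 in the ER arm, against 53.7% of all genes kept. The medians were -0.22 in the ATF4 arm and -0.21 in the ER arm, and -0.02 over all genes kept, whose standard deviation was 0.24. The exceptions in the ATF4 arm were CTH, PSPH, SLC38A2 and SLC7A11.

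The 2 pairs share no array. The arms lay apart in the stable pair only, since their medians in the transient pair were -0.22 (ATF4 arm) and -0.21 (ER arm). In the ATF4 arm 26 of 35 genes (74.3%) were higher in the stable and lower in the transient knockdown, a pattern shown by 26.0% of all genes kept. In the ER arm 11 of 13 (84.6%) were lower in both, against 28.0% of all genes kept. The knockdown effect common to the pairs was estimated in limma from all 4 arrays, blocked on method, so that the stable and transient knockdowns stand in for replicates and 1 residual degree of freedom is left. Its p-values therefore rest on the spread between the methods, not between cultures. That spread is moderated in limma by a trend over all genes kept, so other genes enter each p-value and SE. After Benjamini-Hochberg adjustment, limma called 0 of the 52 genes and 0% of all genes kept, the smallest adjusted p being 0.971. ZEB2, the target, was among the genes kept and was not called either, though it differed by -2.60 and -3.05. A count of 0 therefore cannot show that the members did not differ. At an unadjusted limma p under 0.05 there were 3 of the 52 and 384 of 15082. The 3 were ER chaperone genes. Their mean differences over the pairs were -0.69 ± 0.18 (moderated SE) for HYOU1, -0.76 ± 0.24 for SDF2L1 and -0.48 ± 0.17 for HSP90B1. Each was lower in both knockdowns, and HSP90B1 was read only by probe sets whose name marks possible cross-hybridisation.

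**Figure D3:**
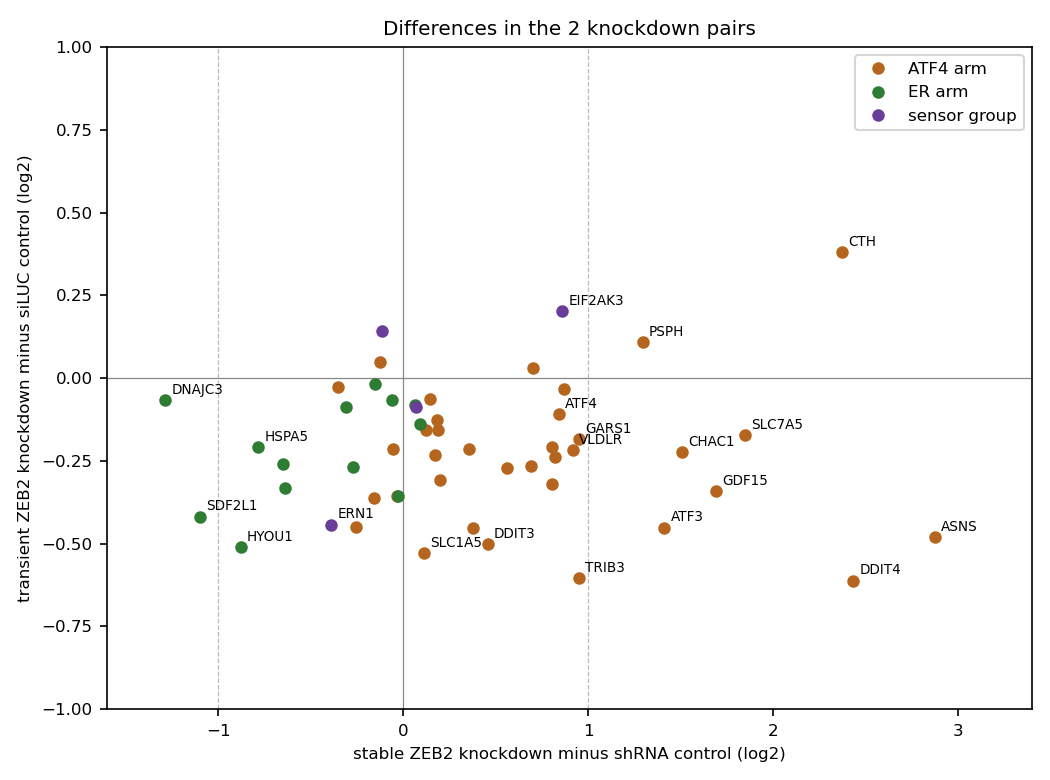
Difference in log2 level in the stable knockdown (horizontal axis) against that in the transient knockdown (vertical axis), each minus its own control, with 1 point per gene and dashed lines at 2-fold. The ATF4 arm (brown) spreads to the right and mostly below 0, up to ASNS at 2.88 and -0.48, while the ER arm (green) lies to the lower left, down to DNAJC3 at -1.29.

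Further genes of the same pathways, from lists that hold no member, were measured the same way. Of 20 other ATF4-linked genes, 16 were kept, and in the stable pair 7 were at least 1.5-fold higher and 0 lower. Of all genes kept, 7.55% were higher and 7.11% lower by that measure. JDP2, a bZIP repressor gene, read 7.21 in the stable knockdown and 4.69 in the shRNA control, and 8.31 in the transient knockdown and 8.71 in the siLUC control. NUPR1, a stress-induced chromatin protein gene, read 6.73 in the stable knockdown against 4.78 in the shRNA control, and 10.10 in the transient knockdown against 10.50 in the siLUC control. Their differences in the stable pair, 2.52 and 1.95, rest on shRNA control values near the filter level, where RMA compresses differences. VEGFA (0.90), PCK2 (0.84), KLHL24 (0.81), CARS1 (0.79) and YARS1 (0.73) were the other 5, and YARS1 differed by -0.66 in the transient pair. In the transient pair 14 of the 16 were lower, against 53.7% of all genes kept. VEGFA was one of the 2 that were higher, by 0.57. Of 20 other ER folding and degradation genes 18 were kept. In the stable pair 0 were 1.5-fold higher and 4 lower, against the same 7.55% and 7.11% of all genes kept. The 4 lower genes were MANF (-1.003), SLC33A1 (-0.88), DNAJB11 (-0.85) and CRELD2 (-0.81). In the transient pair 16 of the 18 were lower, against 53.7% of all genes kept.

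The arrays were also ordered by level for each gene at its brightest probe set. The shRNA control was the lowest of the 4 arrays for 27 of 35 ATF4 arm genes (77.1%), against 30.8% of all genes kept, and the siLUC control was the highest for 25 of 35 (71.4%), against 27.6%. The stable knockdown was the lowest for 9 of 13 ER arm genes (69.2%), against 28.8% of all genes kept. When the siLUC control replaced the shRNA control, an alternative added once the data had been seen, the stable knockdown had 2 of the 52 genes 2-fold higher and 8 lower, 3.85% and 15.4%, where 3.14% of all genes kept were higher and 8.17% lower. The median of the ATF4 arm was then -0.56 and that of the ER arm -0.49, against -0.09 over all genes kept. At the brightest probe set the ATF4 arm median thus changed sign with the control, and the ER arm median did not. The siLUC control was, however, also the highest array for 8 of 13 ER arm genes (61.5%), and the lowest for 0 of the 52. It also differs from the stable knockdown in method and RNA input. The exchange therefore cannot show whether the ER arm difference is independent of the control.

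Between the controls, siLUC minus shRNA control, 17 of 35 ATF4 arm genes were at least 2-fold higher and 2 lower, and 10.8% of all genes kept were higher and 4.99% lower. The shRNA control enters this comparison and the stable pair alike. GDF15 (4.65) and CTH (4.64) had the highest differences, read at the brightest probe set as all values here, followed by ASNS (3.46), TRIB3 (2.71), VLDLR (2.66), DDIT4 (2.56) and CHAC1 (2.55). The value of GDF15 is that of its cross-hybridising probe set, the other GDF15 probe set above the filter level gave 1.10, and the mean of the 3 GDF15 probe sets was 2.00. ATF4 itself differed by 1.71 and the glycine synthetase GARS1 by 1.80. The 2 lower genes were EPRS1 (-1.44) and ALDH18A1 (-1.18). In the sensor group ERN1 (1.59) and EIF2AK3 (1.45) were 2-fold higher, but the other 2 ERN1 probe sets gave -0.55 and -0.80 and the mean of the 3 was 0.079. In the ER arm DNAJB9 (1.60) was higher and HSP90B1 (-1.75) lower. The other HSP90B1 probe set gave -3.84, and both are named as possibly cross-hybridising.

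Probe sets of 1 gene disagreed far more between the controls than within a pair. Of the 32 genes with 2 or more probe sets above the filter level, 13 (40.6%) spanned at least 1 unit between the controls, against 3 (9.38%) in the stable pair and 0 in the transient pair. The shares over all such genes were 37.1%, 6.51% and 1.36%, so the share between the controls was near that of genes in general. The 3 in the stable pair were GDF15, SLC7A1 and ATF3. CALR ranged between -3.05 and 0.92 and EPRS1 between -3.91 and 0.77 between the controls, while CTH gave 4.64 and 4.14. DNAJC3 ranged between -3.31 and -0.35 there, against -1.34 and -0.78 in the stable pair. The median span over the 32 genes was 0.69 between the controls, 0.19 in the stable pair and 0.27 in the transient pair, and over all 7584 such genes it was 0.73, 0.32 and 0.27. The part of the unequal RNA input in this was not tested, and a between-control value of a single probe set carries this spread.

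**Figure D4:**
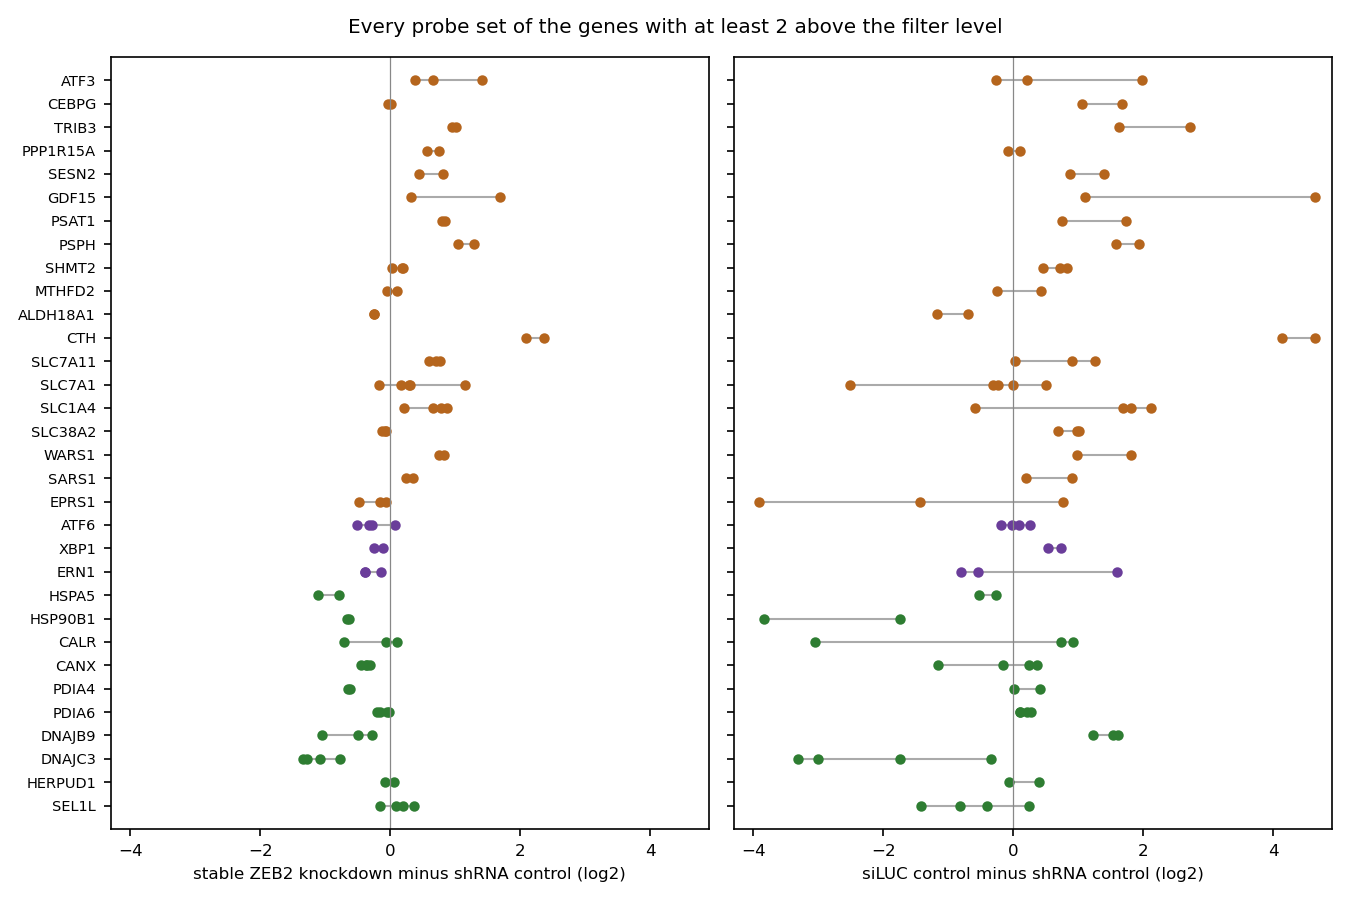
Difference in log2 level (horizontal axis) at every probe set above the filter level, for the 32 genes with 2 or more, in the stable knockdown minus the shRNA control (left) and the siLUC control minus the shRNA control (right). Points are probe sets, grey lines join those of 1 gene, and brown, purple and green mark the ATF4 arm, the sensor group and the ER arm; spans are short on the left and reach 4.68 for EPRS1 on the right.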

How the data were processed

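The authors deposited 1 log2 value per probe set and array, from RMA (affy) per the submitters' processing notes, with versions not given in the sources used here. That method subtracts background, equalises the distributions of the arrays and combines the probes of a set, so a change in total RNA per cell is hidden. Array medians lay between 5.34 and 5.37. Scanner files were not used here.

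Of 54675 probe sets, 41097 carried 1 symbol in the platform annotation, 1801 several and 11777 none in the table used here. Each gene was read by its probe set of highest mean, and genes whose maximum fell short of the 40th percentile of all values, 4.77, were left out. Genes were counted at 2-fold and 1.5-fold. The common effect used limma 3.58.1 in R 4.3.3 (lmFit, eBayes with trend, two-sided, Benjamini-Hochberg over 15082 genes, threshold 0.05), a step tested on simulated data. Alternatives concerned probe sets, scaling, filter, fold threshold and limma settings.

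The genes, lists and rules were chosen with earlier results of these data known. Array values were given for genes at 2-fold in any comparison and for the 2 genes of each role group with the largest difference in a knockdown pair, and other genes by difference, except 5 (HYOU1, HSPA5, CBS, PHGDH and HERPUD1) given in full outside this rule. Of the other pathway genes, those at 1.5-fold in a knockdown pair were named. Figures were drawn with matplotlib 3.10.9.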

Additional observations from a re-analysis of the deposited data

Results flagged for a closer look

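The 2 knockdowns differed in direction for the ATF4 arm, whose median was 0.69 in the stable pair and -0.223 in the transient pair. Among the 52 genes, 2 differed by 1.5-fold or more in opposite directions, higher in the stable knockdown and lower in the transient one. DDIT4 differed by 2.43 in the stable pair and by -0.61 in the transient pair, and TRIB3 by 0.95 and -0.60. Of the other pathway genes YARS1 did so too, with 0.73 in the stable pair and -0.66 in the transient pair. The share of all genes kept with such opposite differences was not counted. Each pair taken alone, 7.55% of them were 1.5-fold higher in the stable pair and 1.51% 1.5-fold lower in the transient pair. With 1 array per group these differences between the pairs were not tested, and the pairs also differ in delivery, time since knockdown and RNA input.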

How the results depend on the processing

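Of 480 recomputed differences of named genes, 46 moved by more than the SD of all genes in the transient pair (27 under the mean of all probe sets and 19 under that of probe sets above the filter level). Sign changed in 4, SLC1A4 in the transient pair (0.017 with quantile normalization and 0.0068 with cyclic loess, against -0.03) and SEL1L between the controls (-0.61 with either mean, against 0.24), none of them at 2-fold. Under the mean of all probe sets, 5 members were 2-fold higher in the stable pair in place of 8, as PSPH (0.72), GDF15 (0.73) and ATF3 (0.82) dropped below 2-fold, and ASNS gave 1.44. With the mean of probe sets above the filter level 7 were 2-fold higher, with ASNS at 2.88, PSPH at 1.17, GDF15 at 1.01 and ATF3 at 0.82. The ER arm median in the stable pair, -0.31 at the brightest probe set, was -0.60 with either mean and -0.48 without cross-hybridising probe sets. The mean of probe sets above the filter level was chosen after the data were seen. HSP90B1 drops out when cross-hybridising probe sets are left out. At 1.5-fold the stable pair had 19 members higher and 6 lower and the transient pair 2 lower. Of all genes kept, 7.55% were higher and 7.11% lower in the stable pair at 1.5-fold, and 1.51% lower in the transient pair. At 3-fold the stable pair had 5 members higher and 0 lower, and between the controls 15 were higher and 1 lower. Shares over all genes kept were not counted at 3-fold. Between the controls the ER arm median changed sign, being -0.40 with either mean and 0.24 at the brightest probe set, and was 0.0553 without cross-hybridising probe sets. The sensor median, over 4 genes, was -0.22 in the stable pair, -0.10 in the transient pair and 0.35 between the controls with either mean. At the brightest probe set it was -0.02, 0.03 and 1.09 in the same order, so its sign changed in the transient pair. Against the siLUC control, also chosen afterwards, the stable knockdown had 2 members higher and 8 lower, with medians of -0.56 in the ATF4 arm, -0.49 in the ER arm and -0.71 in the sensor group. Why these values moved was not tested, except that fewer or more probe sets enter by construction. Median centring, quantile normalization and cyclic loess left each count within 1.5 times and each median within 0.1. Limma called 0 members under its 5 alternatives, with smallest adjusted p-values between 0.971 and 1. As in the main fit, which did not call ZEB2 either, a count of 0 cannot show that the members did not differ. The limma fit pairs each knockdown with its control by method, and no block on replicate numbers was added because the labels give none. Signal over background could not be assessed without scanner files.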
